A study of Mus musculus with 18 samples.

Results

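The 10 genes followed here belong to the IL-6 cytokine family: the ligands *Il6*, *Il11*, *Lif*, *Osm* and *Cntf*, the receptors *Il6ra*, *Lifr*, *Osmr* and *Cntfr*, and the shared receptor *Il6st*, which encodes gp130. They were taken by gene symbol, and each symbol had 1 row, so they made up 10 of the 36737 genes in the table of counts. The L3–L5 dorsal root ganglia (DRG) came from CD1 mice, an outbred strain, and each group held 6 animals, 3 of each sex, with 1 library per animal and 18 libraries in all. The groups were sham mice, mice with a tibial fracture that received vehicle, and mice with a tibial fracture that received protectin DX (PDX), a lipid mediator made from the fatty acid DHA. Both fracture groups were sampled on day 3 after surgery, and no group carried a deletion or a transgene. The labels give neither the age of the mice, nor the dose of PDX, nor the day and injection of the sham mice, and PDX without fracture was not analysed here.

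Cytokines of this family signal through gp130. IL-6, IL-11 and CNTF first bind a receptor subunit of their own (IL-6Rα, IL-11Rα or CNTFRα), whereas LIF and oncostatin M bind the signaling subunits LIFR or OSMR directly. The assembled receptor activates JAK kinases and then STAT3, and SOCS3, itself a STAT3 target, ends the signal. In peripheral nerve, CNTF is made by myelinating Schwann cells, LIF and IL-6 are known to be induced by nerve injury, and OSMR is carried by a class of itch- and pain-sensing neurons. In bulk tissue, fewer cells of a type and less RNA per cell cannot be told apart.

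Promoter sequence was searched in RefSeq windows of 300 bases (GRCm38.p6), from 250 bases before to 50 bases after a start for members and all other genes alike, which held 9 of the 10 genes in 16 windows, since several members have more than 1 start. The motifs searched, on both strands, were TTCNNNGAA (STAT), TGANTCA (AP-1, the site of FOS, JUN and related factors), TGACGTCA (CRE) and the NF-kB motif, whose one match is spelled out below its window, and no matches overlapped in the members' windows. STAT letters were in the windows of 0 of the 9 genes, against 9.55% of all genes with a window, and CRE letters in 0, against 2.03%. AP-1 letters were found in 5 of the 9 (*Il6*, *Il11*, *Lif*, *Osmr* and *Cntf*), against 8.97% of all genes, and NF-kB letters in *Il6* alone, against 0.466%. The windows of *Il6*, *Lif* and *Osmr* are printed because *Il6* holds both motifs, while *Lif* and *Osmr* combine an AP-1 match with a low unadjusted p after fracture. Each runs 5′ to 3′ on the strand of its gene and is cut to the first 270 of the 300 bases searched, from 250 before the start to 20 after it, with motif letters in capitals. They lie at chr5:30012864-30013133 on the plus strand (*Il6*), at chr11:4257318-4257587 on the plus strand (*Lif*) and at chr15:6874294-6874563 on the minus strand (*Osmr*).
Il6: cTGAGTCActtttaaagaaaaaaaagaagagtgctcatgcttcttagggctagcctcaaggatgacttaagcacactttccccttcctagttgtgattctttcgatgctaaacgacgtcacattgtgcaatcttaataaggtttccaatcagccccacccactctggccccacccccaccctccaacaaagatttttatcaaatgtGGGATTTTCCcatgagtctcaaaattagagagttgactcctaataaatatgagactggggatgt
Lif: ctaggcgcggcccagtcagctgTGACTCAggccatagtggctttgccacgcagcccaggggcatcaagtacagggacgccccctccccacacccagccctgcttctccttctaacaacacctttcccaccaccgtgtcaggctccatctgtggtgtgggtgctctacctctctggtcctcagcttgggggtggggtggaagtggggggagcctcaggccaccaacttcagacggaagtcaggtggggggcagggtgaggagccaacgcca
Osmr: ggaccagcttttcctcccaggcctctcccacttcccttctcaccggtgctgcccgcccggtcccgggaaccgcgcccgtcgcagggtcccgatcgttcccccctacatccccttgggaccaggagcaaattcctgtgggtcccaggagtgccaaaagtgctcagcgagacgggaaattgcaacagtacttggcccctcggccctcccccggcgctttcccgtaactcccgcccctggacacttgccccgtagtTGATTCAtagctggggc
In *Il6*, the AP-1 match TGAGTCA began 249 bases before the start and the NF-kB match GGGATTTTCC 44 bases before it. In *Lif*, TGACTCA began 228 bases before the start, and in *Osmr*, TGATTCA began at base 4 of the transcript. These are matches of letters, and binding was not measured.

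Between 63235040 and 82824942 counts per library lay on genes, and 3 counts, treated as the floor of detection, equalled 0.0363 to 0.0479 CPM (counts per gene scaled to a common library size after TMM normalization). Each comparison was fitted to its 12 libraries with sex as a covariate by edgeR's quasi-likelihood test, and a gene was called at an adjusted p under 0.05. Markers of sensory neurons, 8 genes that were all detected in each group, summed to 13139–14302 CPM in sham, 14610–15267 CPM after fracture and 13955–15480 CPM with PDX. Genes of other tissues varied more: 8 genes of placenta summed to 179–577 CPM in sham libraries, 29.3–276 CPM after fracture and 27.6–142 CPM with PDX, and 8 genes of skeletal muscle to 25.9–587 CPM in sham (median 78.2), 50.3–1139 CPM after fracture (median 343) and 13.5–525 CPM with PDX (median 53.3), with no placenta or muscle gene at 0 in a whole group. The fold changes of all 8 muscle genes were on the higher side for fracture over sham (median log2 2.07) and on the lower side for PDX over fracture (-1.91), and 0 were called in either comparison. Their part in the results that follow was not tested.

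Levels of the family differed widely in FPKM, the deposited measure that corrects for transcript length. *Cntf*, the Schwann cell cytokine, was highest with 67.4 ± 16.6 FPKM (SD, n = 18 libraries). Of its exon bases, 78.9% are shared with *Zfp91*, and how shared reads were split is not known, which limits this rank. The shared receptor *Il6st* followed with 34.0 ± 1.80 FPKM, *Lifr* with 29.9 ± 1.89 FPKM and *Cntfr* with 26.1 ± 1.81 FPKM. *Osmr* had 4.01 ± 0.387 FPKM, and *Il6ra*, which confers binding of IL-6, had 0.898 ± 0.313 FPKM. The other 4 ligands lay at the bottom, with 0.295 ± 0.0615 FPKM for *Il11*, 0.279 ± 0.0853 FPKM for *Lif*, 0.145 ± 0.0574 FPKM for *Il6* and 0.0583 ± 0.0446 FPKM for *Osm*. From *Cntf* down to *Il11*, each gene was below the one before it in 18 of 18 libraries, although the ranges of *Il6st* and *Lifr* and those of *Lifr* and *Cntfr* overlapped across libraries. *Il11* was above *Lif* in 10 of 18 libraries, so these neighbours did not differ beyond their spread, while *Lif* was above *Il6* in 16 and *Il6* above *Osm* in 15.

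**Figure D1:**
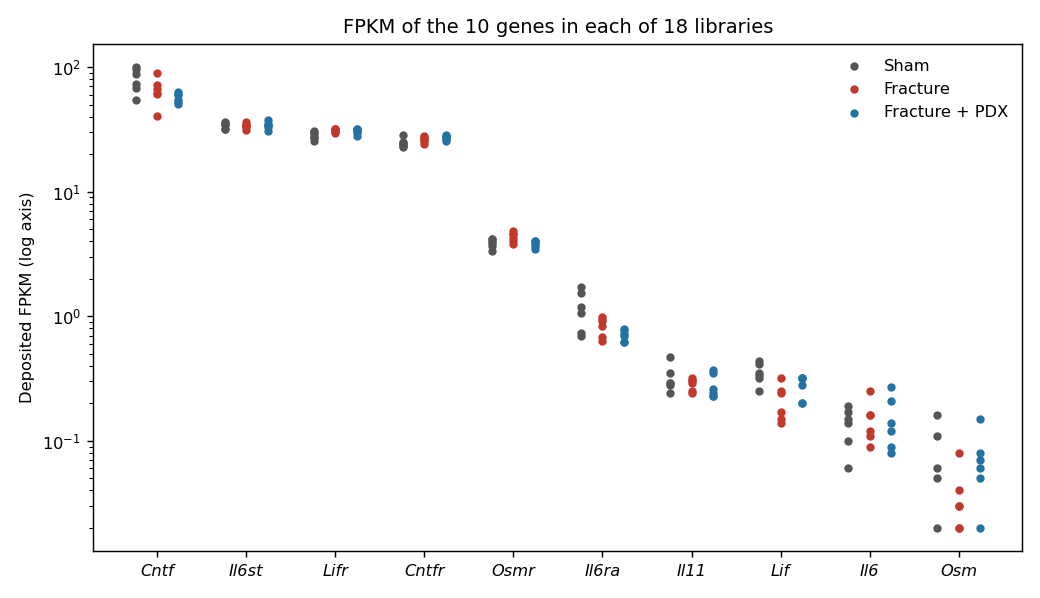
FPKM of the 10 genes in each library on a log axis, with genes ordered by their mean over 18 libraries and points colored by group. *Cntf*, whose reads are uncertain in origin, was highest in every library. Next came gp130 and the receptors for LIF and CNTF, and *Il11*, *Lif*, *Il6* and *Osm* lay at or below 0.47 FPKM. The sham library in which *Osm* was listed at 0 cannot be drawn on this axis.

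The receptors were thus unequally abundant beside gp130. In sham DRG, the FPKM of *Il6st* was 33.2 ± 12.9 times that of *Il6ra* (SD, n = 6), 8.89 ± 0.612 times that of *Osmr* and 1.21 ± 0.0897 times that of *Lifr*. After fracture, the ratio to *Il6ra* was 41.8 ± 8.74, that to *Osmr* 7.79 ± 0.524 and that to *Lifr* 1.09 ± 0.0343. With PDX, the ratios were 49.1 ± 7.69, 8.91 ± 0.486 and 1.12 ± 0.0580.

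Spread between mice of a group also differed within the family. The within-group SD of *Cntf* was 0.30 on the log2 CPM scale, against a median of 0.075 for the 1092 genes nearest to it in level. That of *Il6ra* was 0.36, against 0.17 for 922 genes. *Il6st* (0.083), *Lifr* (0.070) and *Cntfr* (0.077) varied little. The low ligands *Lif* (0.37), *Il6* (0.57) and *Osm* (1.0) lay near the medians of genes of their own level (0.38, 0.58 and 0.97), whereas *Il11* had 0.27, against 0.47 for 802 genes, and *Osmr* 0.12, against 0.082 for 1288 genes.

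To see whether the injury moved the family, fracture was compared with sham. Of the 9 members tested, 0 were called, against 2.92% of all 20659 genes (603 genes). *Osm* did not pass the filter on low counts in this comparison. At an unadjusted p under 0.05, 3 members were on the higher side (*Lifr*, *Osmr* and *Cntfr*) and 2 on the lower (*Lif* and *Il6ra*), which is 5 of 9 members against 18.5% of all genes. The median log2 fold change of the 9 members tested was -0.0055, and that of all genes was 0.0021. No member separated the 6 fracture from the 6 sham libraries without overlap, which 2.57% of all genes did.

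Among the ligands, *Lif* showed the largest fitted difference after fracture. Sham libraries held 1.21 to 2.10 CPM with a median of 1.70, and fracture libraries 0.673 to 1.52 CPM with a median of 0.988. In 5 of 6 sham libraries *Lif* lay above every fracture library, and in 4 of 6 fracture libraries it lay below every sham library. The log2 fold change was -0.74 (SE 0.20, 95% interval -1.17 to -0.31, adjusted p = 0.0654, edgeR), and an exact two-sided permutation test of log2 CPM gave p = 0.00649, where 0.00216 is the smallest its 924 labelings allow. DESeq2, which called 7.94% of its genes here, gave an adjusted p of 0.0144, and edgeR with all 18 libraries in one fit, which called 3.81%, gave 0.0498. Between 52 and 165 reads were counted on *Lif* per library of these groups. Markers of macrophages (7 genes, all detected) summed to 77.7–94.1 CPM in sham and 59.1–76.1 CPM after fracture, and those of fibroblasts (6 genes, all detected) to 1476–1960 and 1400–1628 CPM. Their part in the level of *Lif* was not tested.

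*Lifr*, the receptor of LIF that also joins the CNTF receptor complex, lay on the higher side. It had 307 to 355 CPM in sham libraries with a median of 336, and 348 to 387 CPM after fracture with a median of 371. In 5 of 6 fracture libraries it was above every sham library, and 5 of 6 sham libraries were below every fracture library. The log2 fold change was 0.15 (SE 0.039, adjusted p = 0.0583, edgeR; exact permutation test, p = 0.00433), with an adjusted p of 0.0133 in DESeq2, 0.0461 in the fit of 18 libraries and 0.0307 without the first fracture female. By sex, males went from 318 ± 9.49 to 376 ± 16.4 CPM (SD, n = 3) and females from 350 ± 4.64 to 363 ± 13.8 CPM. The difference between the sexes in this effect was -0.19 on the log2 scale (adjusted p = 0.536, edgeR interaction), and 0 of 20659 genes (0%) passed that test. Sensory neuron markers summed higher in every fracture library than in every sham library, with the values given above, and their part in *Lifr* was not tested.

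*Osmr*, the oncostatin M receptor subunit, was also on the higher side after fracture, and it was the member with the lowest p in the comparison of PDX with fracture. Sham libraries had 44.8 to 56.1 CPM with a median of 52.5. Fracture libraries had 51.0 to 65.7 CPM with a median of 59.3, and 4 of 6 of them lay above every sham library. PDX libraries had 46.9 to 54.3 CPM with a median of 52.2, within the range of sham. The log2 fold change of fracture over sham was 0.19 (SE 0.057, adjusted p = 0.0979, edgeR; exact permutation test, p = 0.0368), with adjusted p-values of 0.0404 in DESeq2 and 0.0466 in the fit of 18 libraries. That of PDX over fracture was -0.18 (SE 0.049, 95% interval -0.28 to -0.076, adjusted p = 0.811, edgeR; exact permutation test, p = 0.0303). These contrasts share the fracture libraries. PDX and sham differed by 0.0058 (95% interval -0.089 to 0.10, adjusted p = 0.971, edgeR). The sums of muscle markers given above had the same order of group medians for fracture against both other groups. The third fracture male and the second fracture female, with 1139 and 695 CPM of muscle markers, had the highest *Osmr* of their group (65.7 and 62.2 CPM), and the third fracture female, with 50.3 CPM, had the lowest (51.0 CPM). The third PDX female had 525 CPM of muscle markers and 48.5 CPM of *Osmr*. Sums of sensory neuron markers were higher in every fracture library than in every sham library. The part of muscle and sensory neuron content in *Osmr* was not tested. *Osmr* and *Lifr* lie 215644 bases apart on chromosome 15, *Osmr* on the minus strand from 6813577 to 6874969 and *Lifr* on the plus strand from 7090614 to 7197489.

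**Figure D2:**
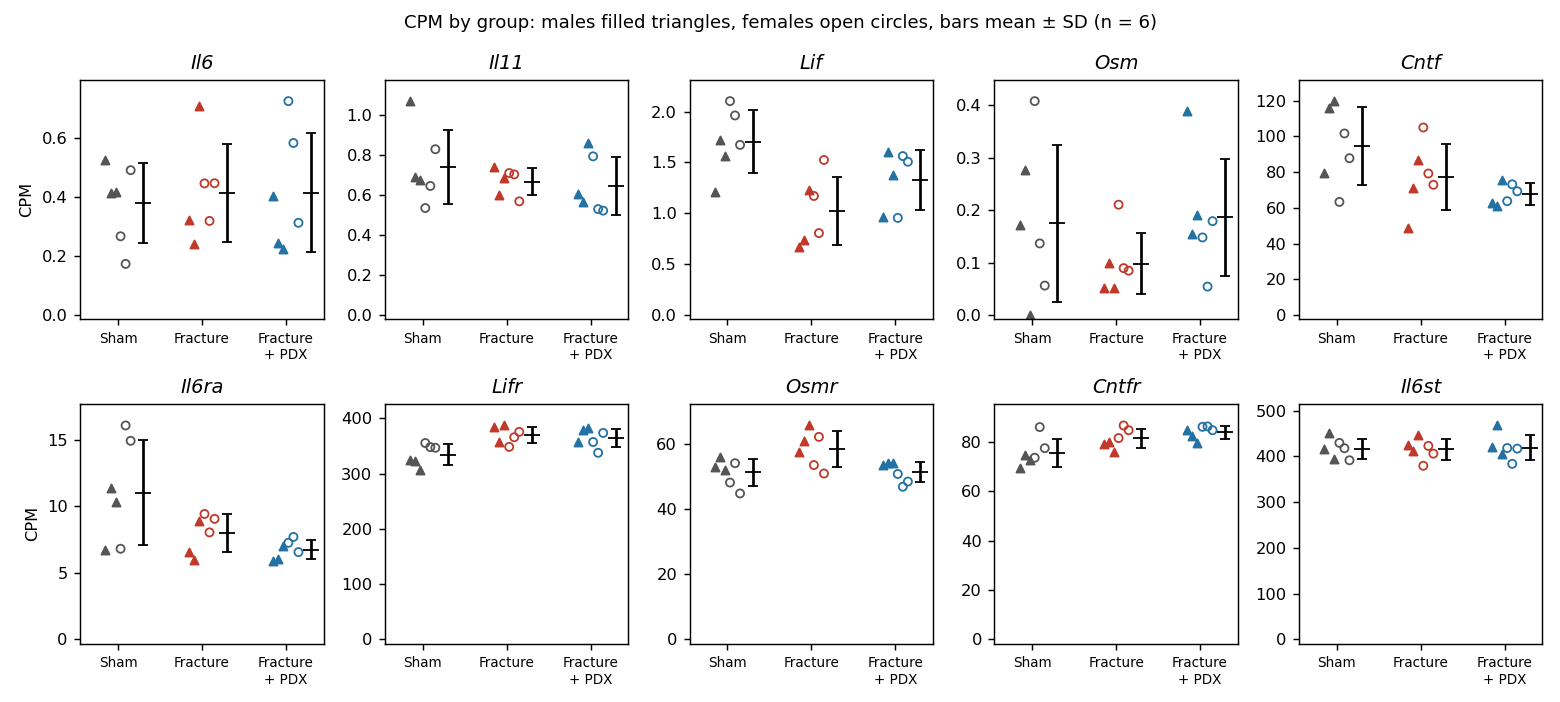
CPM of each member by group, with males as filled triangles, females as open circles, and the mean ± SD of 6 mice beside them. *Lif* lay lower and *Lifr* higher after fracture with 1 or 2 libraries in the range of the other group, 4 fracture libraries of *Osmr* lay above all sham libraries, and *Il6st* stayed within 380–468 CPM throughout.

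*Cntf* and *Il6ra* differed most between sham and PDX, and their sham libraries were spread wide. *Cntf* ranged from 63.4 to 120 CPM in sham (median 94.8), from 48.8 to 105 CPM after fracture (median 76.1) and from 60.8 to 75.8 CPM with PDX (median 66.6). In 5 of 6 sham libraries it lay above every PDX library. Its log2 fold change was -0.29 for fracture over sham (adjusted p = 0.508, edgeR), -0.18 for PDX over fracture (adjusted p = 0.949, edgeR) and -0.47 for PDX over sham (SE 0.14, adjusted p = 0.0978; exact permutation test, p = 0.0173). For PDX over sham, DESeq2, which called 8.21% of its genes, gave an adjusted p of 0.0273, and edgeR without the first sham female gave 0.0227. Leaving out 1 library moved the log2 fold change from -0.41 (without the first sham female) to -0.17 (without the first fracture male) for fracture over sham, and from -0.28 (without the first fracture male) to -0.089 (without the first fracture female) for PDX over fracture. Schwann cell markers, 6 genes of myelin and its sheath that were detected in each group, summed to 10308–23764 CPM in sham (median 16994), 12091–18611 CPM after fracture (median 14907) and 14739–16508 CPM with PDX (median 15236), and the sham female with the lowest *Cntf* in its group also had the lowest sum. The part of Schwann cell content in *Cntf* was not tested.

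Reads of *Cntf* are also uncertain in their origin. The gene lies on the minus strand of chromosome 19 from 12763660 to 12765632, and 847 bases, 78.9% of its exons, are shared with an annotated transcript of *Zfp91*, a zinc finger gene on the same strand. *Zfp91* had 116–131 CPM in sham, 124–129 CPM after fracture and 108–124 CPM with PDX, a narrower spread than that of *Cntf*. Its log2 fold changes were 0.041 for fracture over sham (adjusted p = 0.570, edgeR), -0.083 for PDX over fracture (adjusted p = 0.887) and -0.043 for PDX over sham (adjusted p = 0.613), and how the counting split shared reads is not given in the sources used here.

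*Il6ra*, the binding receptor of IL-6, ranged from 6.70 to 16.1 CPM in sham (median 10.9), from 5.97 to 9.43 CPM after fracture (median 8.49) and from 5.89 to 7.71 CPM with PDX (median 6.79). The sham libraries numbered 1 of both sexes were at 6.70 and 6.82 CPM, inside the range of PDX, and the other 4 were above every fracture and PDX library. Log2 fold changes were -0.46 for fracture over sham (SE 0.20, adjusted p = 0.252, edgeR), -0.23 for PDX over fracture (SE 0.10, unadjusted p = 0.0377, adjusted p = 0.908, edgeR; exact permutation test, p = 0.102) and -0.69 for PDX over sham (SE 0.19, adjusted p = 0.0663, edgeR; exact permutation test, p = 0.0303). For PDX over sham, DESeq2 gave an adjusted p of 0.00514, the fit of 18 libraries, which called 5.09% of its genes, gave 0.0239, and edgeR without the first sham male or the first sham female gave 0.0312 or 0.0102. Placenta genes summed higher in sham than in PDX libraries as well, with the values given above. Within sham, the second female had the highest placenta sum (577 CPM) and the highest *Il6ra* (16.1 CPM). The third female had the lowest sum (179 CPM) and 14.9 CPM of *Il6ra*, and the male and female numbered 1 had sums of 405 and 345 CPM. Markers of macrophages, 7 genes that were detected in each group, summed to 77.7–94.1 CPM in sham, 59.1–76.1 CPM after fracture and 58.8–80.1 CPM with PDX. Single markers did not share 1 order over the sham libraries: in the male and female numbered 1, the scavenger receptor *Cd163* was at its lowest (4.05 and 3.98 CPM, against 5.69 to 14.2 CPM in the other 4) and the chemokine receptor *Cx3cr1* at its highest (5.08 and 4.96 CPM, against 2.29 to 3.81 CPM). The part of placenta and macrophage content in *Il6ra* was not tested. The gene lies on the minus strand of chromosome 3 from 89864059 to 89913196, and an antisense gene overlaps 2.80% of its exon bases.

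*Cntfr*, which encodes the binding receptor of CNTF, was the 1 member of 10 that rose with PDX against sham, where 4.5% of 20574 genes were called (925 genes) and 2.17% were called as higher. It had 69.5 to 86.0 CPM in sham (median 74.2), 76.0 to 86.6 CPM after fracture (median 80.8) and 79.3 to 86.2 CPM with PDX (median 84.8). In 5 of 6 sham libraries it was below every PDX library, and the second sham female, at 86.0 CPM, lay inside the PDX range. The log2 fold change of PDX over sham was 0.16 (SE 0.039, 95% interval 0.072 to 0.24, adjusted p = 0.0397, edgeR; exact permutation test, p = 0.0130), and that of fracture over sham was 0.11 (adjusted p = 0.174, edgeR). This call was lost in 10 of the 12 fits that left out 1 library, with adjusted p-values from 0.0109 to 0.0908, and also without the filter, without sex, with the replicate block and with limma on FPKM. Sensory neuron markers, with 3 of 8 called as higher for PDX over sham, moved in the same direction, and their part in *Cntfr* was not tested. At an unadjusted p under 0.05, 4 of the 10 members differed between PDX and sham (*Cntfr* and *Lifr* higher, *Il6ra* and *Cntf* lower), against 18% of all genes, and 0 were free of overlap, against 2.86%. *Lifr* had 338 to 383 CPM with PDX and a log2 fold change over sham of 0.13 (adjusted p = 0.0921, edgeR, and 0.0440 by DESeq2).

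**Figure D3:**
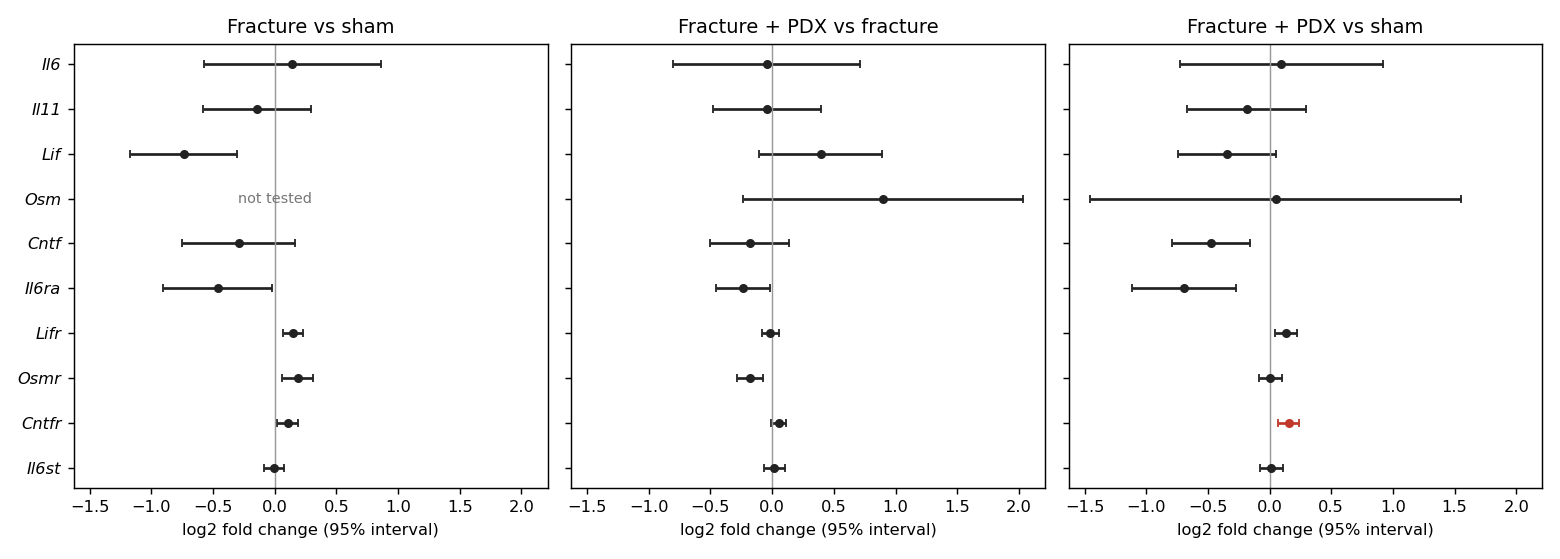
Log2 fold changes of the 10 members in 3 comparisons with their 95% intervals from edgeR, on 1 scale. *Osm* was not tested for fracture over sham, and for PDX over fracture it passed the filter mostly through the PDX libraries. *Cntfr* in PDX over sham (red) is the 1 value with an adjusted p under 0.05, *Osmr* lies above 0 for fracture over sham and below 0 for PDX over fracture, and the intervals of *Il6*, *Il11* and *Il6st* hold 0 in all 3.

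The ligands IL-6, IL-11 and oncostatin M were scarce in every group, and their differences were within the spread between mice. *Il6*, the founding cytokine of the family, had 14 to 55 counts per library, with medians of 0.415 CPM in sham, 0.385 CPM after fracture and 0.358 CPM with PDX. Its log2 fold change after fracture was 0.14 with a 95% interval from -0.58 to 0.86 (adjusted p = 0.874, edgeR). *Il11* had 35 to 75 counts per library and medians of 0.684, 0.695 and 0.585 CPM, and its log2 fold change after fracture was -0.15 (95% interval -0.58 to 0.29, adjusted p = 0.776, edgeR), or -0.22 without the first sham female and -0.022 without the first sham male. For PDX over fracture, the log2 fold change of *Il6* was -0.046 (95% interval -0.80 to 0.71) and that of *Il11* -0.041 (95% interval -0.48 to 0.40), with adjusted p = 0.997 for both (edgeR).

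*Osm*, the ligand of OSMR and LIFR, had 0 to 32 counts per library. Medians were 0.154 CPM in sham, 0.0871 CPM after fracture and 0.167 CPM with PDX. Fracture libraries held 4 to 16 counts and PDX libraries 4 to 29, and the groups overlapped. At least 11 counts were found in 5 of 6 PDX libraries but in 1 of 6 fracture libraries, so *Osm* passed the filter, with its minimum count of 10, mostly through the PDX libraries. Its log2 fold change of PDX over fracture is for this reason a description only. It was 0.90 with a 95% interval from -0.23 to 2.04 (adjusted p = 0.917 by edgeR, and p = 0.0952 by the exact permutation test). Leaving out 1 library lowered it to as little as 0.58. Markers of neutrophils and their precursors, 10 genes that were detected in each group, summed to 80.4–365 CPM in sham, 86.8–185 CPM after fracture and 78.4–458 CPM with PDX, and the PDX male with the most *Osm* (0.390 CPM) had the highest sum. The first PDX female had the next highest sum of its group (401 CPM) and only 0.148 CPM of *Osm*, and the third PDX female, with a sum of 124 CPM, had 0.179 CPM. Of these 10 marker genes, 8 had an unadjusted p under 0.05 on the higher side for PDX over fracture, where 589 of 20562 genes did, and 0 were called, as were 0% of all genes. Their part in the level of *Osm* was not tested. *Osm* lies 16530 bases from *Lif* on the plus strand of chromosome 11 (4236420 to 4241026, with *Lif* from 4257557 to 4272514).

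Between PDX and fracture, 0 of the 10 members were called by edgeR, as were 0 of all 20562 genes (0%), with 1113 genes (5.41%) at an unadjusted p under 0.05. DESeq2 called 15 genes (0.109% of its genes) and the fit of 18 libraries 0 (0%), with no member among them. *Osmr* and *Il6ra*, both on the lower side, were the 2 members at an unadjusted p under 0.05. *Lif* had 0.955 to 1.61 CPM with PDX (median 1.44), between its levels in the other groups, and its log2 fold change over fracture was 0.39 (SE 0.23, adjusted p = 0.917, edgeR; exact permutation test, p = 0.115) and over sham -0.34 (adjusted p = 0.357, edgeR). None of the 10 members kept the groups apart, which 0.267% of all genes did.

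gp130 itself differed little between the groups. *Il6st* had 391.6 to 451 CPM in sham (median 417), 380 to 448 CPM after fracture (median 417) and 384 to 468 CPM with PDX (median 418). The 95% interval of its log2 fold change was -0.090 to 0.079 for fracture over sham, -0.065 to 0.10 for PDX over fracture and -0.080 to 0.11 for PDX over sham (adjusted p = 0.962, 0.991 and 0.925, edgeR). *Il6st* lies on the plus strand of chromosome 13 from 112464070 to 112510086, and its 25427 to 36386 counts per library were the most of any member.

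Females and males were compared over all 18 libraries with group as a covariate. None of the 10 members was called, against 0.297% of 20527 genes (61 genes), and 3 of 10 had an unadjusted p under 0.05, against 10.4% of all genes. *Osmr* was lower in females by -0.14 on the log2 scale (SE 0.041, adjusted p = 0.175, edgeR), with means of 49.0 and 53.7 CPM in sham females and males, 55.6 and 61.4 CPM after fracture and 48.7 and 54.1 CPM with PDX. *Cntfr* was higher in females by 0.10 (SE 0.029, adjusted p = 0.174, edgeR), and in each group its female mean was the higher one. *Il6ra* differed by 0.31 (adjusted p = 0.454, edgeR). The effect of PDX over fracture differed between the sexes for 1 of 20562 genes (0.00486%), which was no member. In the 5 lists of pathway genes described next, 0 genes were called between the sexes. The genes with their lowest p-values follow, with the log2 fold change first in each bracket. Among STAT3-responsive genes they were *Cebpd* (0.33, adjusted p = 0.0646, edgeR) and *Serpina3n* (-0.12, adjusted p = 0.174). Among transducers they were *Jak3* (0.18, adjusted p = 0.334) and *Gab1* (-0.089, adjusted p = 0.442), and among other family genes *Ctf1* (0.28, adjusted p = 0.389) and *Il11ra1* (0.17, adjusted p = 0.532). Among inhibitors they were *Ptpn1* (0.071, adjusted p = 0.589, edgeR) and *Socs7* (-0.039, adjusted p = 0.704), and among injury-induced genes *Atf3* (0.19, adjusted p = 0.860) and *Npy* (-0.32, adjusted p = 0.891).

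Downstream of the receptors, few transcripts of the signaling proteins were called, as among all genes. Among 14 genes of JAK and STAT signaling, 0 were called after fracture (2.92% of all genes), 0 for PDX over fracture (0% of all genes) and 1, as higher, for PDX over sham (2.17% of all genes were called as higher). That gene was *Stat3*, the main transcription factor of the pathway, with 302–327 CPM in sham, 313–354 CPM after fracture and 332–389 CPM with PDX. Every PDX library lay above every sham library, and 2.86% of all genes kept these groups apart. Its log2 fold change of PDX over sham was 0.14 (SE 0.034, adjusted p = 0.0337, edgeR), and that of fracture over sham was 0.097 (adjusted p = 0.127). When each library was left out in turn, *Stat3* was called for PDX over sham in 5 of 12 fits, with adjusted p up to 0.0853 (edgeR, without the second sham female). *Jak1*, a kinase bound to gp130, had a log2 fold change of 0.094 after fracture (adjusted p = 0.170, edgeR) and 0.069 for PDX over sham (adjusted p = 0.258). *Gab1*, an adaptor of the receptor, had -0.17 for PDX over sham (adjusted p = 0.0724, edgeR). For PDX over fracture the lowest p-values were those of *Grb2* and *Stat5b*. Their log2 fold changes were 0.050 and 0.053, with adjusted p of 0.917 and 0.938 (edgeR). Of all genes tested, *Jak1* was also the third most like *Osmr* across the 18 libraries once group and sex means were subtracted (Pearson r = 0.82 over log2 CPM, after *Pikfyve* with 0.87 and *Rbm48* with 0.85).

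Inhibitors of the pathway, 15 genes of the SOCS, PIAS and phosphatase families, held 0 calls in each of the 3 comparisons of groups, in which 2.92%, 0% and 4.5% of all genes were called. *Socs3*, the feedback inhibitor of gp130, had 9.97–11.5 CPM in sham, 8.75–13.5 CPM after fracture and 8.56–11.0 CPM with PDX, and its log2 fold changes were -0.088 for fracture over sham (adjusted p = 0.678, edgeR), -0.052 for PDX over fracture (adjusted p = 0.990) and -0.14 for PDX over sham (adjusted p = 0.329). The lowest p-values after fracture were those of *Ptpn6*, a phosphatase of blood cells (-0.46, adjusted p = 0.0795, edgeR), and *Cish*, a STAT5-induced SOCS protein (0.30, adjusted p = 0.109). For PDX over sham *Cish* had 0.35 (adjusted p = 0.0613, edgeR) and *Socs2* 0.24 (adjusted p = 0.196), and for PDX over fracture *Socs1* had 0.37 and *Ptpn1* 0.092 (adjusted p = 0.917 for both). Of 9 further ligands and receptors of the family, 7 were tested and 0 called in any of these comparisons, against the same shares of all genes. *Il31ra*, the partner of OSMR in the IL-31 receptor, had the lowest p after fracture (log2 fold change 0.49, adjusted p = 0.136, edgeR). *Il11ra1*, the receptor of IL-11, had the lowest p for PDX over sham (-0.30, adjusted p = 0.0865, edgeR), followed by *Il31ra* (0.33, adjusted p = 0.274). For PDX over fracture it was *Ctf1*, cardiotrophin 1 (log2 fold change 0.30, adjusted p = 0.917, edgeR).

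Genes that respond to STAT3 in other tissues were mostly on the lower side after fracture. Of 31, all tested, 28 had a negative log2 fold change (90.3%, against 49.3% of all genes), with a median of -0.20 against 0.0021 for all genes, and 9 of them had an unadjusted p under 0.05 on the lower side, against 9.69% of all genes. By the adjusted test, 2 fell, against 1.83% of all genes, and 0 rose. *A2m*, a protease inhibitor of the acute phase, fell by 0.53 on the log2 scale (SE 0.062, adjusted p = 0.00250, edgeR), from 42.5–59.2 CPM in sham to 34.3–38.6 CPM. *Icam1*, an adhesion molecule, fell by 0.42 (SE 0.10, adjusted p = 0.0406, edgeR), from 4.40–5.76 to 3.53–4.31 CPM. In fits that left out 1 library, which were added for the called genes of the lists after seeing the data, *A2m* was called in 12 of 12 and *Icam1* in 3 of 12, with adjusted p up to 0.0943 (edgeR, without the second fracture female). With PDX against sham, *A2m* fell by 0.68 (adjusted p = 0.00134, edgeR) and *Serpina3n*, a serpin of reactive glia and neurons, rose by 0.18 (SE 0.038, adjusted p = 0.0173, edgeR), while 20 of 31 log2 fold changes were negative (64.5%, against 50.4% of all genes). Between PDX and fracture 0 of 31 were called, against 0% of all genes, and 22 of 31 log2 fold changes were positive and 9 negative (29.0%, against 50.0% of all genes), with a median of 0.040, and the lowest p-values were those of the complement gene *C3* (0.58, adjusted p = 0.887, edgeR) and *A2m* (-0.15, adjusted p = 0.893). Every sham sum of macrophage markers, given above with *Il6ra*, lay above every fracture sum. Markers of endothelium, 6 genes that were detected in each group, summed to 113–156 CPM in sham, 98.8–120 CPM after fracture and 94.5–110 CPM with PDX. For fracture over sham, the fitted fold changes of other markers were negative too: those of 10 of 10 neutrophil genes (median log2 -0.81), 6 of 6 fibroblast genes (-0.27), 8 of 8 placenta genes (-1.73), 6 of 6 genes of red blood cells (-0.53) and 6 of 6 of B cells (-0.80). For PDX over fracture, fold changes were positive for 10 of 10 neutrophil genes (median log2 1.11), 6 of 6 red blood cell genes and 6 of 6 B cell genes. They were positive for 6 of 7 macrophage, 3 of 6 fibroblast, 1 of 6 endothelium and 0 of 8 placenta genes. The part of these cell types in the STAT3-responsive genes was not tested.

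Genes that sensory neurons induce after axonal injury, some of them known to depend on gp130 cytokines, moved the other way. Of 14 in the list, 9 were tested after fracture and 5 were called, all as higher, against 1.09% of all genes called as higher. The list was drawn up with earlier results of these libraries known, and a gene that passes the filter through the fracture groups alone is likely to differ. *Atf3*, a transcription factor of injured neurons, rose from 11.3–14.5 CPM in sham to 20.3–72.3 CPM after fracture (log2 fold change 1.65, SE 0.25, adjusted p = 0.0141, edgeR) and had 25.6–107 CPM with PDX. *Sprr1a*, which promotes axon growth, rose by 3.83 (SE 0.81, adjusted p = 0.0405, edgeR), and the neuropeptide *Npy* by 2.51 (SE 0.55, adjusted p = 0.0336). Both rested much on the second fracture male, which had 61.3 CPM of *Sprr1a* and 8.56 CPM of *Npy*, against 3.18 to 10.6 CPM and 0.931 to 2.10 CPM in the other 5 fracture libraries and 0.410 to 1.78 CPM and 0.261 to 0.884 CPM in sham. Without it, the log2 fold changes were 2.60 for *Sprr1a* (adjusted p = 0.0388, edgeR) and 1.70 for *Npy* (adjusted p = 0.0548), and that of *Atf3*, for which it also had the highest level, was 1.39 (adjusted p = 0.00846). *Adcyap1*, the neuropeptide PACAP, rose by 0.78 (adjusted p = 0.0283, edgeR) and *Sox11*, a transcription factor of regrowing axons, by 0.39 (adjusted p = 0.0425). Of the 12 fits that left out 1 library, *Atf3* was called in 12, *Adcyap1* in 6, *Sprr1a* in 3, *Npy* in 3 and *Sox11* in 2, with adjusted p up to 0.105 (edgeR, *Sox11* without the third sham male). For PDX over sham, where 2.17% of all genes were called as higher, these 5 were called as higher and so were *Gal*, *Nts* and *Stmn4*. *Crh*, the stress neuropeptide CRH, had 0 to 12 counts in sham, 5 to 113 after fracture and 8 to 268 with PDX. It passed the filter for PDX over sham through the PDX libraries, so no fold change is given for it. For PDX over fracture 0 genes of the list were called, against 0% of all genes. The lowest p there were those of *Stmn4* and *Sox11*, with log2 fold changes of 0.31 and 0.35 (adjusted p = 0.917 for both, edgeR). The fold changes of PDX over sham were 2.21 for *Atf3* (adjusted p = 0.00260, edgeR), 0.92 for *Adcyap1* (0.00941), 4.93 for *Sprr1a* (0.0100), 0.74 for *Sox11* (0.0107) and 3.29 for *Npy* (0.0118), all on the log2 scale. These 5 were called for PDX over sham whichever library was left out, whereas *Nts* was called in 7 of 12 such fits, *Gal* in 5 and *Stmn4* in 2, with adjusted p up to 0.0995 (edgeR, *Stmn4* without the second sham female). In these same libraries *Lif*, *Il6* and *Cntf* had log2 fold changes over sham of -0.74, 0.14 and -0.29 after fracture.

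**Figure D4:**
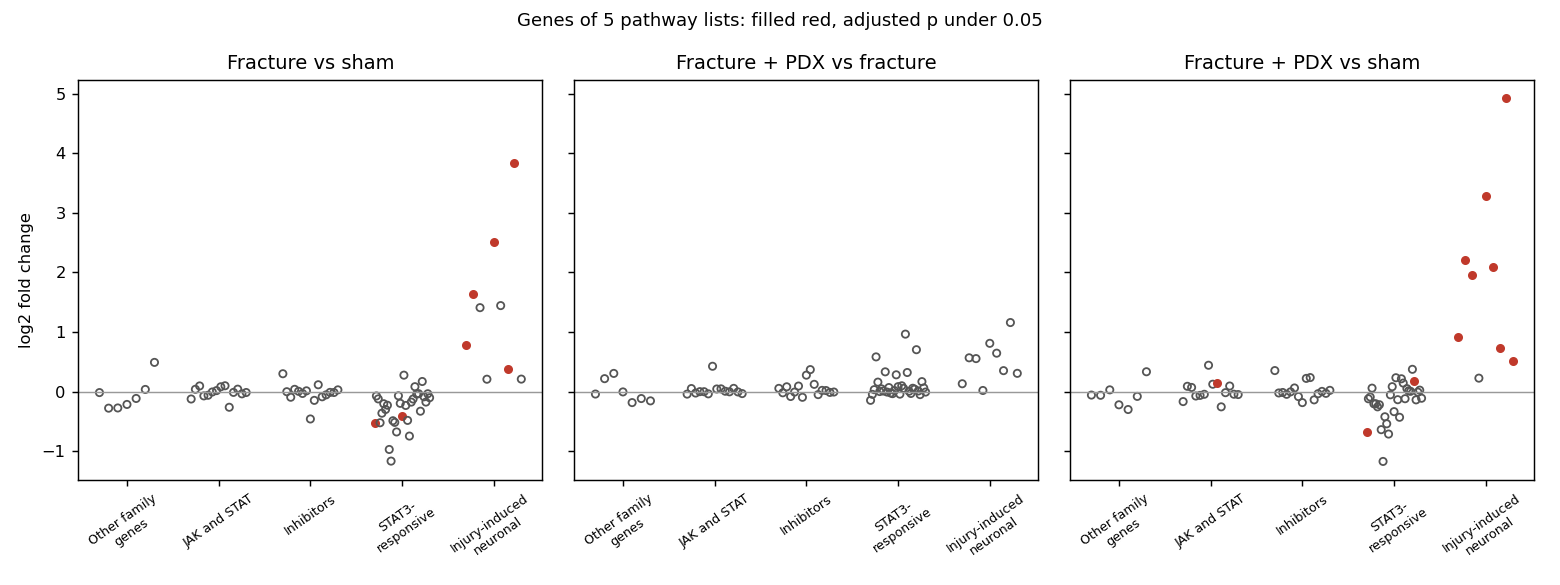
Log2 fold changes of the genes tested in 5 lists around the pathway, in 3 comparisons, with genes at an adjusted p under 0.05 in filled red. Injury-induced genes of neurons lie above 0 against sham (*Crh* is not drawn), STAT3-responsive genes lie mostly below 0 for fracture over sham, and the JAK, STAT and inhibitor genes lie within 0.5 of 0.

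Likeness across libraries was measured for each member as Pearson's r of log2 CPM after group and sex means were subtracted, over 18 libraries and 20526 other genes. *Cntf* was most like *Gid4* (r = 0.94), and *Slc36a2*, an amino acid transporter, was also among its nearest genes (0.87). *Il6ra* was most like *Gm39090* (0.94), *A330015K06Rik* (0.91) and *Odr4* (0.90). *Lifr* was most like *9330175M20Rik* (0.92), *Sv2c* (0.88), a synaptic vesicle protein, and *Il15* (0.88), and *Cntfr* most like *Neurod1* (0.91), *Zbtb24* (0.84) and *Abca8b* (0.83). For *Lif* the nearest were *Gm16363* (0.88), *Dcxr* (0.86) and *Eif3j1* (0.85), and for *Osm* *Gpr141* (0.89), *4930438A08Rik* (0.87) and *Mboat4* (0.85). For *Il6* they were *Amer3* (0.90), *AC115752* (0.88) and *Map4k1* (0.85), for *Il11* *Slc10a2* (0.87), *Yipf2* (0.85) and *CT010467* (0.84), and for *Il6st* *9930021J03Rik* (0.88), *Rnf144a* (0.88) and *Foxk1* (0.87). Each r is among the 3 highest of 20526 and all members were read from the same libraries, so these are descriptions.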

How the data were processed

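Poly(A) RNA from DRG was made into stranded, paired-end libraries (TruSeq Stranded mRNA) and sequenced on the Illumina NovaSeq. The submitters' processing notes name cutadapt 1.10, FastQC, HISAT2, StringTie and mm10, without their roles. The authors deposited raw read counts per gene, without normalization, and FPKM for 36737 genes, and both were used as deposited. Columns whose names begin with Con were read as the sham mice, the only arm without a fracture. Coordinates are those of the deposited table (GRCm38), and exon overlaps come from the GENCODE annotation of that build.

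Genes were kept by filterByExpr (minimum count 10, total 15), scaled by TMM and tested across all genes by edgeR 4.0.16 (quasi-likelihood, robust) on R 4.3.3, with sex and group in the model and Benjamini-Hochberg adjustment. Single members were tested by exact two-sided permutation of log2 CPM (prior count 2). Alternatives were DESeq2 1.42.0, upper-quartile scaling, no filter, a stricter filter (10 or more counts in all libraries), a model that left out sex, a replicate block, all 18 libraries, limma 3.58.1 on log2(FPKM + 1) and log2(FPKM + 0.1), and leaving out each library. Counting error limits precision for members with few counts.

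The members, the gene lists and the tests were chosen with earlier results of these data known. Named genes were all 10 members, *Jak1*, *Stat3*, *Socs3*, up to 6 called genes with the lowest p per list (where fewer than 2 were called, the 2 lowest p as values) and the 3 genes most like a member. *Gal*, *Nts*, *Zfp91* and, for PDX over sham, *Stmn4* were named beside this rule after their values were seen. Some genes that the rule takes are not reported here.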

Additional observations from a re-analysis of the deposited data

Results flagged for a closer look

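In the 6 fracture libraries, *Osm* was far higher in the first female than in the other 5: 0.210 CPM, against 0.0517 to 0.0997 CPM. It was the 1 sample that stood apart from its group among 30 groups of 6 tested (10 members in 3 groups), and chance alone sets about 1 in 20 such groups apart. The library held 16 counts of *Osm*. The other 5 held 4 to 7 counts, so without it *Osm* passed the filter on low counts through the PDX libraries alone, and no fold change is given for that fit. The neutrophil marker sum of the first female, 185 CPM, was also the highest of the fracture libraries. The cause was not tested.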

How the results depend on the processing

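Genes called changed by over 1.5 times in some fits. DESeq2 called 1511 genes for fracture over sham (603 by edgeR), 15 for PDX over fracture (0), 1620 for PDX over sham (925) and 330 for females over males (61). Leaving out 1 library gave 213 to 710 genes for fracture over sham (lowest without the second fracture female), 0 to 1 for PDX over fracture, 498 to 1008 for PDX over sham (lowest without the first PDX female) and 25 to 79 for females over males (lowest without the third fracture female). With a replicate block of sex and number, 118 genes were called for fracture over sham, 0 for PDX over fracture and 486 for PDX over sham. The labels do not say that a number pairs mice, and deviations of same-numbered libraries correlated at -0.081 to 0.134, so the block is no paired design. It ended the call of *Cntfr* (adjusted p = 0.0831, edgeR) and changed no other call of a member.

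Over 846 refits of member fold changes, 768 kept direction and side of the threshold, 15 gained a call, 15 lost one (all *Cntfr* for PDX over sham) and 48 changed sign, all of them for fold changes that were not called. Outside the fits that leave out a library, the sign changed for *Il6* in PDX over fracture (0.012 without sex, 0.0032 with FPKM + 1), for *Il6st* in PDX over sham (-0.0037 and -0.0038 with FPKM + 1 and FPKM + 0.1), for *Osmr* in PDX over sham (-0.0071 and -0.0083) and for *Osm* in females over males (-0.0013 with FPKM + 1). Leaving out 1 library moved the log2 fold change of *Il6* from -0.076 to 0.32 for fracture over sham, from -0.22 to 0.26 for PDX over fracture, from -0.12 to 0.25 for PDX over sham and from -0.035 to 0.27 for females over males. That of *Il6st* ran from -0.032 to 0.016, from -0.0067 to 0.037 and from -0.017 to 0.034 in the first 3 of these. For PDX over fracture, *Lifr* ran from -0.031 to 0.0013 and *Il11* from -0.14 to 0.010. For PDX over sham, *Osm* ran from -0.29 to 0.58 and *Osmr* from -0.018 to 0.042. For females over males, *Lifr* ran from -0.0074 to 0.025, *Osm* from -0.24 to 0.32 and *Cntf* from -0.060 to 0.092. The cause was not tested. *Osm* could not be tested for fracture over sham or under the stricter filter, and its few counts limit precision.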
